A study of Sus scrofa with 23 samples.

Results

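The skeletal muscle contractile genes described here are MYLPF, TNNC2, MYL1, TNNT3, CKM and MYH7. They were chosen by exact gene symbol in the platform annotation, which gave 1 probe set for each, so 6 of the 24123 probe sets on the Affymetrix Porcine Genome Array and 6 of the 6765 genes named by a probe set with 1 symbol. MYLPF is the regulatory and MYL1 the essential light chain of fast myosin, TNNC2 is the calcium-binding and TNNT3 the tropomyosin-binding troponin of fast fibres. CKM is muscle creatine kinase, which regenerates ATP in both fibre types, and MYH7 is the heavy chain of slow fibres and of the heart ventricle. No sequence is shown.

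Skeletal muscle contracts when myosin heavy chains, each carrying an essential and a regulatory light chain, pull on actin filaments, and a calcium-binding troponin complex on the filament opens or closes the sites for myosin. Fast and slow fibres use different genes for these parts, so the fibre type can be read from the transcripts. Articular cartilage is built by chondrocytes and holds no muscle fibres.

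The study measured articular cartilage of a pig cross of Duroc and Pietrain, in which osteochondrosis, a disorder of cartilage that fails to ossify in an orderly way, was recorded as affected or non-affected. The labels give 4 affected and 5 non-affected arrays of the medial femoral condyle in the knee, and 8 affected and 6 non-affected arrays of the medial humeral condyle in the elbow. They give no age and no treatment, and the series' design speaks of sib-pairs without naming them. Arrays femur non-affected 1 and 2 and arrays humerus affected 5 and 6 were so alike that each pair was averaged as 1 sample, which left 4, 4, 7 and 6 samples.

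Values are the deposited log2 levels, where a difference of 1 is a 2-fold change and the floor lies at 4. The labelled tissue was checked on chondrocyte genes. COL2A1, the main cartilage collagen, lay between 11.63 and 12.52 in the femur and between 10.51 and 12.58 in the humerus. The proteoglycan ACAN lay between 13.07 and 13.67 in the femur and between 13.11 and 14.02 in the humerus. All 21 samples thus carried high cartilage transcripts. The labels do not say that arrays came from separate animals, so the p-values cover the spread among samples and nothing more.

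Before the results, 2 libraries need naming. Humerus affected 8 held the highest value of all 21 samples for 5 of the 6 genes and the second highest for TNNT3. Within its group, humerus non-affected 6 had values well apart from the others for MYLPF, TNNC2, MYL1 and CKM. Values without them are given beside the results they move most.

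MYLPF, TNNC2, MYL1 and CKM were high in several femoral samples of both status groups. In the humerus they were high mainly in 1 sample of each status group. Over the 21 samples MYLPF spanned 5.77 log2 units, TNNC2 5.66, MYL1 5.66 and CKM 5.77, against 3.51 for MYH7 and 1.84 for TNNT3. The high samples were the same for MYLPF, TNNC2, MYL1 and CKM: humerus affected 8 and femur non-affected 4 had the highest values in each.

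MYLPF read 5.76, 9.66, 8.55 and 7.51 in affected femur, samples 1 to 4. In non-affected femur it read 5.18 in the averaged pair, 6.82 in sample 3, 10.04 in sample 4 and 8.79 in sample 5. In affected humerus its lowest value was 4.303, its median 4.71 and its highest 10.07. All affected humeral samples other than sample 8 lay at or under 5.07, so their median describes 6 of 7 samples. In non-affected humerus the lowest was 4.53, the median 4.90 and the highest 7.31, which was sample 6. The other 5 lay at or under 5.24.

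TNNC2 read 5.36, 8.89, 7.79 and 6.84 in affected femur. In non-affected femur it read 4.27 in the averaged pair and then 5.95, 9.39 and 8.04. The order of the femoral samples was that of MYLPF. In affected humerus TNNC2 had a lowest value of 4.0, a median of 4.63 and a highest of 9.66. In non-affected humerus these were 4.0, 4.68 and 6.77. With 2 of 21 samples at the floor, the low end of TNNC2 is a bound and not a level.

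MYL1 read 5.35, 8.99, 7.67 and 6.64 in affected femur, and 4.38, 4.97, 9.26 and 8.14 in non-affected femur. In affected humerus it had a lowest value of 4.002, a median of 4.74 and a highest of 9.67, and in non-affected humerus 4.004, 4.48 and 7.18. MYL1 also reached 6.02 in humerus affected 2, where MYLPF was at 4.94 and TNNC2 at 4.88. Again 2 samples lay at the floor.

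CKM read 5.80, 8.22, 7.25 and 7.36 in affected femur, and 4.95, 6.35, 9.37 and 8.19 in non-affected femur. In affected humerus the lowest value was 4.76, the median 5.04 and the highest 10.31, and in non-affected humerus 4.55, 5.04 and 6.51. The humeral medians of both groups were thus the same to 2 decimals. The group means differed by 0.70, and by 0.23 without humerus affected 8 and humerus non-affected 6.

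TNNT3 moved far less. It read 5.23, 5.99, 6.09 and 5.77 in affected femur, and 5.75, 5.34, 6.75 and 6.03 in non-affected femur. In affected humerus the lowest was 4.92, the median 5.26 and the highest 6.34, and in non-affected humerus 4.91, 5.11 and 5.28. Its highest sample was femur non-affected 4, not humerus affected 8, and humerus non-affected 6 did not stand apart.

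MYH7, the slow heavy chain, had another order of samples. It read 4.36, 5.68, 4.96 and 6.18 in affected femur, and 5.23, 5.65, 6.45 and 6.47 in non-affected femur. In affected humerus the lowest was 4.80, the median 5.42 and the highest 7.87, and in non-affected humerus 4.63, 5.01 and 5.24. Humerus affected 8 lay 1.40 above the next sample. Femur affected 3, with MYLPF at 8.55, and humerus non-affected 6, with MYLPF at 7.31, were below the MYH7 median of 5.26.

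**Figure D1:**
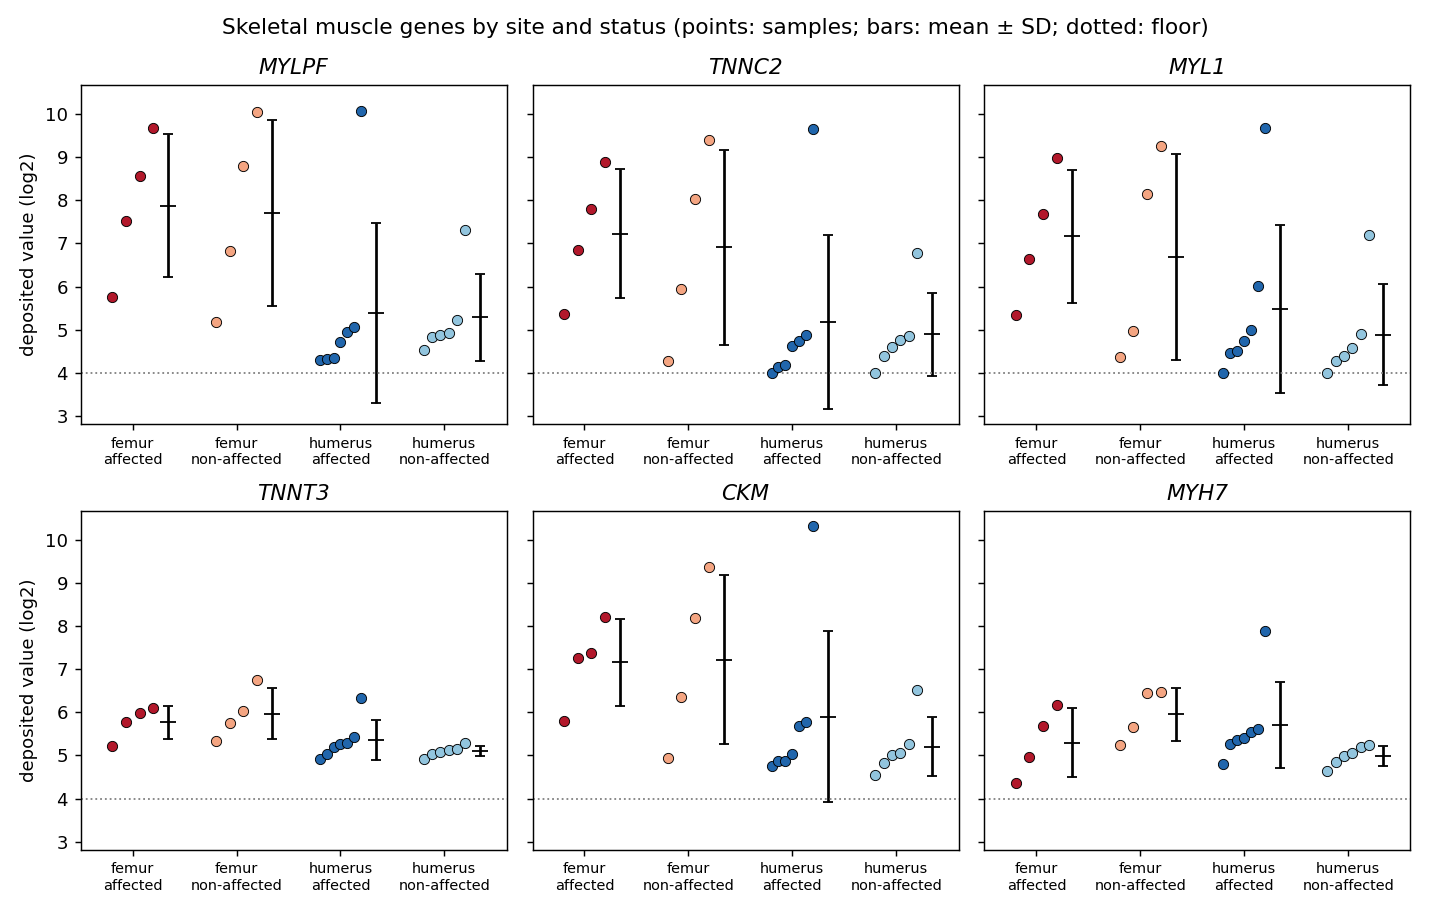
Deposited log2 value of each gene (y axis) in the 4 groups of site and status (x axis), with 1 point per sample, the mean and SD as a bar beside the points, and the floor dotted. MYLPF, TNNC2, MYL1 and CKM spread over the femoral groups and are high in humerus affected 8, while TNNT3 spans only 1.84 units.

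The question of the study was whether affected cartilage differs from non-affected. None of the 6 genes did over both sites. The affected mean of MYLPF was 6.29 ± 2.23 (SD, n = 11), the non-affected mean was 6.25 ± 1.92 (SD, n = 10), and its difference with site in the model was 0.13 ± 0.69 (SE, adjusted p = 0.976). The largest difference was that of MYL1, with an affected mean of 6.09 and a non-affected mean of 5.61, at 0.55 (95% interval -0.89 to 1.997, adjusted p = 0.874). CKM differed by 0.41, TNNC2 by 0.29, MYH7 by 0.18 and TNNT3 by 0.08. The median over the 6 was 0.24, against -0.01 over all probe sets tested.

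All 6 differences had a positive sign, but humerus affected 8 set most of them. Without that array MYLPF differed by -0.34, TNNC2 by -0.15, MYH7 by -0.06, CKM by -0.04 and TNNT3 by -0.03, and only MYL1 remained positive, at 0.13. limma called 0 of 6 genes, and 0% of the 16799 probe sets. Unadjusted p-values under 0.05 numbered 0 among the 6 genes and 1223 among all probe sets. The intervals are wide, since MYLPF could differ by as much as -1.31 or 1.57, so equal levels are not shown.

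Within the femur, affected and non-affected samples overlapped for every gene. The MYLPF mean was 7.87 ± 1.66 for affected femur and 7.71 ± 2.14 for non-affected femur (SD, n = 4 each), a difference of 0.16 (95% interval -2.22 to 2.55). The CKM mean was 7.16 for affected and 7.21 for non-affected femur, and the MYH7 mean 5.29 ± 0.80 for affected and 5.95 ± 0.61 for non-affected femur. The difference of MYH7 was -0.66 ± 0.48 (SE, adjusted p = 0.447). MYLPF, TNNC2, MYL1 and CKM were lowest in femur affected 1 and in the averaged femur non-affected pair of their groups, and far higher in some other samples. TNNT3 differed, at 5.75 in that pair and 5.34 in femur non-affected 3. limma called 0 of 6 genes, against 1.14% of all probe sets (0.393% higher and 0.75% lower in affected femur). Of the 6 genes 0, and of all probe sets 3422, had an unadjusted p under 0.05.

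Within the humerus MYLPF, TNNC2, MYL1 and CKM did not pass the test between affected and non-affected samples. The MYLPF mean was 5.40 ± 2.08 (SD, n = 7) for affected humerus, with 5.29 ± 1.02 (SD, n = 6) for non-affected humerus, a difference of 0.11 (adjusted p = 0.986). Without humerus affected 8 that difference was -0.67, and without both samples that stood apart it was -0.26. TNNC2 differed by 0.28, MYL1 by 0.60 and CKM by 0.70, and without humerus affected 8 by -0.46, -0.10 and -0.03.

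MYH7 and TNNT3 leaned further in the humerus relative to their spread. The MYH7 mean was 5.70 ± 0.995 (SD, n = 7) for affected humerus, with 4.99 ± 0.22 (SD, n = 6) for non-affected humerus. Of the 7 affected samples 6 lay above every non-affected one. Its difference was 0.71 ± 0.38 (SE, adjusted p = 0.768), and 0.34 without humerus affected 8. A two-sided exact permutation test of that difference gave p = 0.0268, unadjusted and 1 of 24 such tests, of which 6 were under 0.05. The TNNT3 mean was 5.35 for affected and 5.10 for non-affected humerus, with 3 of 7 affected samples above every non-affected one. Its difference was 0.25, and 0.09 without humerus affected 8. limma called 0 of 6 genes and 0% of all probe sets here. Of the 6 genes 0, and of all probe sets 1100, had an unadjusted p under 0.05.

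MYH7 thus had opposite signs in the joints. So did TNNT3, at -0.20 in the femur and 0.25 in the humerus, and CKM, at -0.06 and 0.70. For MYH7 the status effect of the femur minus that of the humerus was -1.36 ± 0.61 (SE, unadjusted p = 0.0372, adjusted p = 0.237), which does not pass. It lay between -1.659 and -1.002 when 1 array was left out. For the fast genes that difference was 0.05 in MYLPF (95% interval -2.98 to 3.09), 0.03 in TNNC2 and -0.12 in MYL1. For TNNT3 it was -0.45, and between -0.661 and -0.19 when 1 array was left out, with -0.19 without femur non-affected 4. For CKM it was -0.76, and between -1.109 and -0.021 when 1 array was left out, with -0.021 without humerus affected 8 and -0.036 without femur non-affected 4. limma called 0 of 6 genes, against 0.268% of all probe sets (0.0417% higher and 0.226% lower). The 1 gene with an unadjusted p under 0.05 was MYH7, beside 3177 of all probe sets.

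**Figure D2:**
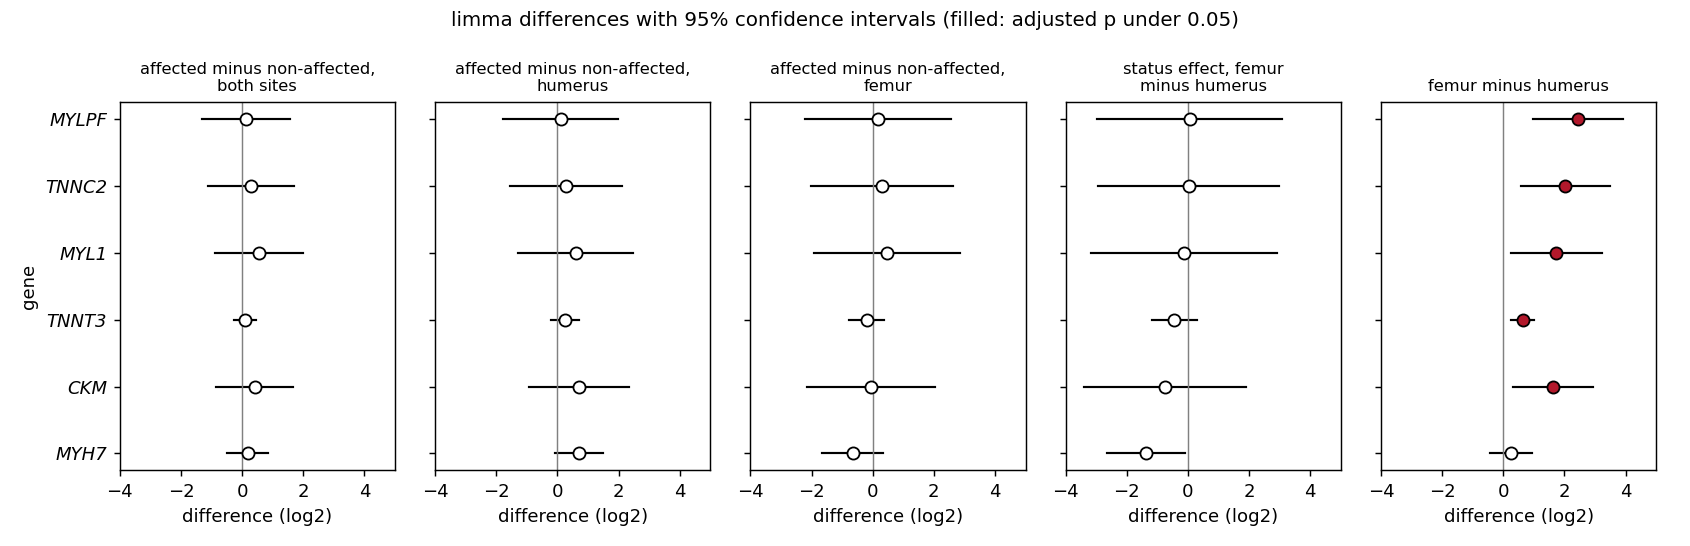
Difference on the log2 scale (x axis) of each gene (y axis) in the 5 comparisons, with its 95% confidence interval from limma. Filled points have an adjusted p under 0.05, which holds for 5 of 6 genes in femur minus humerus and for none in the comparisons of status.

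The joint sites did differ. MYLPF, TNNC2, MYL1, TNNT3 and CKM had higher levels in the femur than in the humerus, and slow MYH7 did not pass the test. The femoral mean of MYLPF was 7.79 ± 1.78 (SD, n = 8), the humeral mean was 5.34 ± 1.61 (SD, n = 13), and its difference with status in the model was 2.45 ± 0.71 (SE, adjusted p = 0.00712). All 8 femoral samples lay above the humeral median of 4.89. The sites still overlapped, because humerus affected 8 lay above all femoral samples. Without it and humerus non-affected 6, 7 of 8 femoral samples lay above the highest humeral one, and the difference was 3.05 (adjusted p = 1.46e-04). That choice was made after the values were seen, so its count and p-value add no support. Leaving out femur non-affected 4, the highest femoral sample, gave 2.11 (adjusted p = 0.0186).

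TNNC2 averaged 7.07 in the femur and 5.05 in the humerus and rose by 2.03 ± 0.695 (SE, adjusted p = 0.0190). MYL1 averaged 6.93 in the femur and 5.21 in the humerus and rose by 1.74 ± 0.72 (SE, adjusted p = 0.0469), which is at the edge of the threshold. TNNT3 rose by 0.64 ± 0.18 (SE, adjusted p = 0.00560), a small change with the smallest p of the set. CKM averaged 7.19 in the femur and 5.58 in the humerus and rose by 1.62 ± 0.63 (SE, adjusted p = 0.0352). MYH7 averaged 5.62 in the femur and 5.37 in the humerus, a difference of 0.26 (95% interval -0.43 to 0.95, adjusted p = 0.534).

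limma called 5 of 6 genes in this comparison. It called 51.8% of all 16799 probe sets, with 17.6% higher and 34.2% lower in the femur, so a call as such sets no gene apart. The median of the 6 differences was 1.68, against -0.12 over all probe sets tested. MYLPF, TNNC2, MYL1 and CKM followed each other in the femur, with r of at least 0.951 over its 8 samples, so their calls are not separate results. TNNC2, MYL1 and TNNT3 had humeral means under the filter on dim probe sets at 5.30 and passed it through the femoral values. Without humerus affected 8 the humeral means of MYLPF (4.95), CKM (5.18) and MYH7 (5.16) lay under 5.30 too. With no filter 4 genes were called, beside 10299 of 23999 probe sets, and MYL1 had an adjusted p of 0.051. With array weights 2 were called, MYLPF and TNNT3, beside 9250 of 16799 probe sets. Leaving out 1 array ended the call of MYL1 in 16 of 23 cases (adjusted p up to 0.113) and that of CKM in 8 (up to 0.0872). The count was 3 without any 1 of the arrays femur affected 2, femur affected 4, femur non-affected 4, femur non-affected 5, humerus affected 3, humerus affected 4, humerus affected 7 or humerus non-affected 3.

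The arrays of the sites also differed in the control RNAs that are added during hybridisation. The 5 BioB and BioC control probe sets averaged between 10.05 and 10.35 in the femoral samples and between 8.48 and 8.92 in the humeral ones, with no overlap. The CreX controls, which are the brightest of that kind, differed less: one averaged 13.77 in the femur and 13.57 in the humerus, with overlapping ranges, and the other averaged 13.79 in the femur and 13.34 in the humerus, without overlap. The labels name no hybridisation run. Site and array handling therefore cannot be told apart in these data. The differences between samples of 1 site, such as the 4.86 units that MYLPF spanned in the femur, lie within such a set of like controls.

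The femoral and humeral samples also differed in markers of other tissues. The summed linear level of 7 endothelial genes ran from 274 to 1140 in affected and from 268 to 1300 in non-affected femur, against 1160 to 4140 in affected and 488 to 2550 in non-affected humerus. That of 7 bone genes ran from 2530 to 6500 and from 3360 to 6020 in the femoral groups, against 4260 to 36500 and 11600 to 31800 in the humeral groups. These sums thus ran mostly the other way than the fast genes, with ranges that overlapped. Of 6 endothelial genes tested, 1 was called higher and 5 lower in the femur. Of 6 bone genes tested, 1 was called higher and 4 lower. Over all probe sets 17.6% were called higher and 34.2% lower. The part of such tissue in the site differences was not tested. In bulk samples more cells of a type and more RNA per cell cannot be told apart.

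Over the 21 samples MYLPF, TNNC2, MYL1 and CKM followed each other, closely in the femur, and in the humerus far less once both samples that stood apart were left out. MYLPF and TNNC2 correlated with r = 0.987 and rho = 0.871 (both permutation p = 1e-05, the smallest that 100000 permutations can give; adjusted over 15 pairs 2.14e-05 and 7.5e-05). Without the 2 samples farthest from the MYLPF median, femur non-affected 4 and humerus affected 8, r was 0.981. Within the sites r was 0.996 over 8 femoral and 0.978 over 13 humeral samples, and 0.901 over the 12 humeral samples without humerus affected 8. Without humerus non-affected 6 as well, r was 0.417 over 11 humeral samples. CKM followed MYLPF with r = 0.948 and rho = 0.735 (permutation p = 1e-05 and 2.3e-04, adjusted 2.14e-05 and 5.75e-04), and r = 0.933 without the same 2 samples. Within the sites that r was 0.967 over 8 femoral and 0.925 over 13 humeral samples, where rho was 0.132. It was 0.610 over 12 humeral samples without humerus affected 8 and -0.367 over 11 without both samples.

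MYH7 followed less closely. It correlated with MYLPF at r = 0.670 and rho = 0.414 (permutation p = 7.7e-04 and 0.0624, adjusted 8.25e-04 and 0.0624), with r = 0.452 without the 2 farthest samples. Within the sites r was 0.613 over 8 femoral and 0.795 over 13 humeral samples, and it was -0.144 over 12 humeral samples without humerus affected 8. In the humerus that relation rests on 1 sample. The closest partner of MYH7 among the 6 was CKM, at r = 0.811 and rho = 0.601 (permutation p = 4e-05 and 0.00478, adjusted 5.45e-05 and 0.00736), with r = 0.602 without the 2 farthest. TNNT3 and MYLPF had r = 0.873 over all samples, but 0.047 over the 12 humeral samples without humerus affected 8, where TNNT3 spanned only 4.91 to 5.43.

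To set fast against slow, each gene was read as its difference from its own median over the samples. The mean of MYLPF, TNNC2, MYL1 and TNNT3 stood 3.86 above that median in humerus affected 8, where MYH7 stood 2.61 above its own. In femur non-affected 4 the values were 3.79 and 1.19, in femur affected 2 they were 3.31 and 0.41, and in femur affected 3 they were 2.46 and -0.31. Samples with alike fast levels thus differed in MYH7. Femur affected 1 had the lowest MYH7 of all 21 samples, at -0.90, with the fast mean at 0.36. These are differences of log2 values, not shares of fibres.

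**Figure D3:**
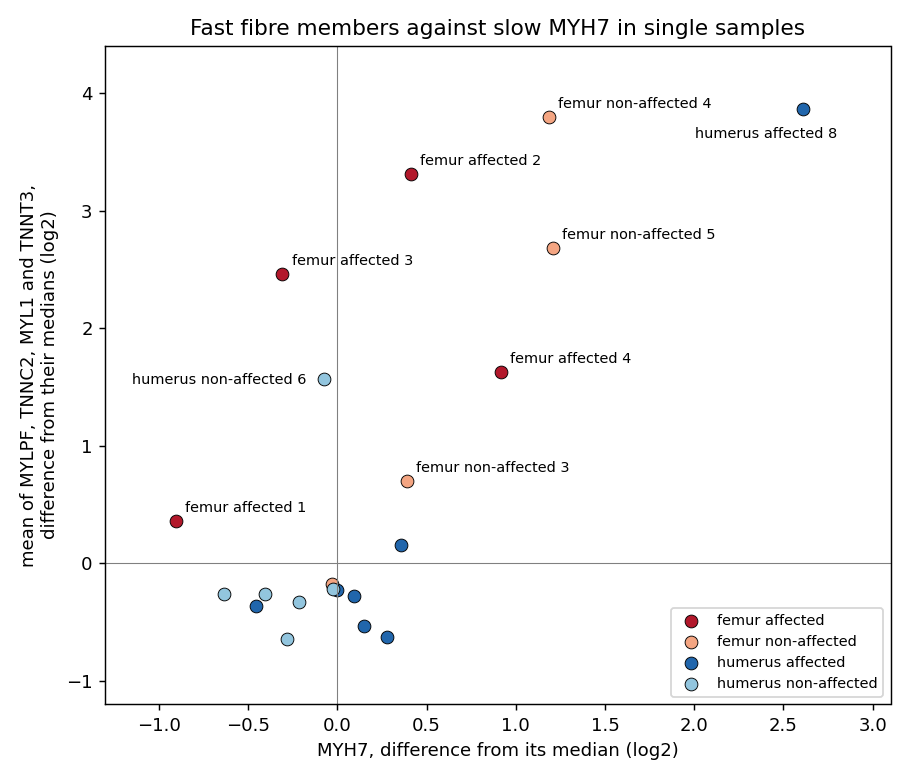
Mean of the 4 fast genes (y axis) against MYH7 (x axis) in each of the 21 samples, both as the log2 difference from the gene's median over all samples, coloured by group. Humerus affected 8 is high on both axes, at 3.86 and 2.61, whereas femur affected 3 and humerus non-affected 6 are high on the fast axis and below 0 for MYH7.

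The wider fibre genes were read by the same samples, each through its brightest probe set. Of 10 further fast fibre genes 3 had a probe set and 2 passed the filter. TNNI2, the inhibitory troponin of fast fibres, rose by 0.92 in the femur (adjusted p = 0.0250), and ATP2A1, the calcium pump of fast fibres, by 1.05 (adjusted p = 9.63e-06). Both were called higher, where 17.6% of all probe sets were called higher and 34.2% lower. Status over both sites called neither, at -0.16 and -0.13, and 0% of all probe sets. TNNI2 read 10.35 in femur non-affected 4 and 7.84 in humerus affected 8. ATP2A1 did not follow the 6 genes, since its highest sample was the averaged femur non-affected pair, at 7.64, where MYLPF was at 5.18. MYH2, a heavy chain of fast fibres that did not pass the filter, read 8.18 in femur non-affected 4, 7.67 in femur affected 2 and 7.39 in femur non-affected 5, against 6.12 in humerus non-affected 6 and 5.13 in humerus affected 8.

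Of 10 further slow fibre genes 7 had a probe set and 4 passed the filter. In femur against humerus 1 of the 4 was called, SLN, a small inhibitor of the calcium pump, at 1.33 (adjusted p = 0.0174). Of all probe sets, 17.6% were called higher and 34.2% lower there. Though listed as slow, SLN followed the fast genes in these samples, with r = 0.976 to their mean. It was not among the 5 probe sets most like MYH7. The fast genes were themselves higher in the femur, so this likeness does not take the call off the slow list. The light chain MYL3 differed by 0.22 (adjusted p = 0.0773) and the slow troponin TNNT1 by 0.22 (adjusted p = 0.663). In status over both sites none of the 4 was called, and 0% of all probe sets. MYL2, the slow regulatory light chain, differed by 0.45, MYL3 by 0.05 and SLN by 0.08. Unadjusted p-values were above 0.05 for each of the 4 in that comparison.

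Humerus affected 8 held the highest value of 4 of the 7 slow genes. MYL2 read 11.66 there, against at most 5.56 in the other humeral and 6.76 in the femoral samples. TNNC1, the slow and cardiac calcium-binding troponin, read 9.48, against at most 4.95 and 6.64. TNNT1 read 9.01, against at most 5.43 and 6.38, and TNNI1, the slow inhibitory troponin, 8.26, against at most 5.19 and 5.89. TNNC1, TNNI1 and MYH2 did not pass the filter and were picked after their values were seen. In femur non-affected 4, whose MYLPF of 10.04 was close to the 10.07 of humerus affected 8, MYL2 was 6.76, TNNC1 6.64 and TNNT1 6.38. The remaining 3 slow genes were not highest in humerus affected 8. CASQ2, a calcium-binding protein of the calcium store, read 4.60 there, below its median of 4.68, and MYL3 read 6.08, against 6.21 in femur non-affected 5. SLN had values of 8.75 in femur non-affected 4, 8.72 in femur affected 2 and 8.60 in humerus affected 8.

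**Figure D4:**
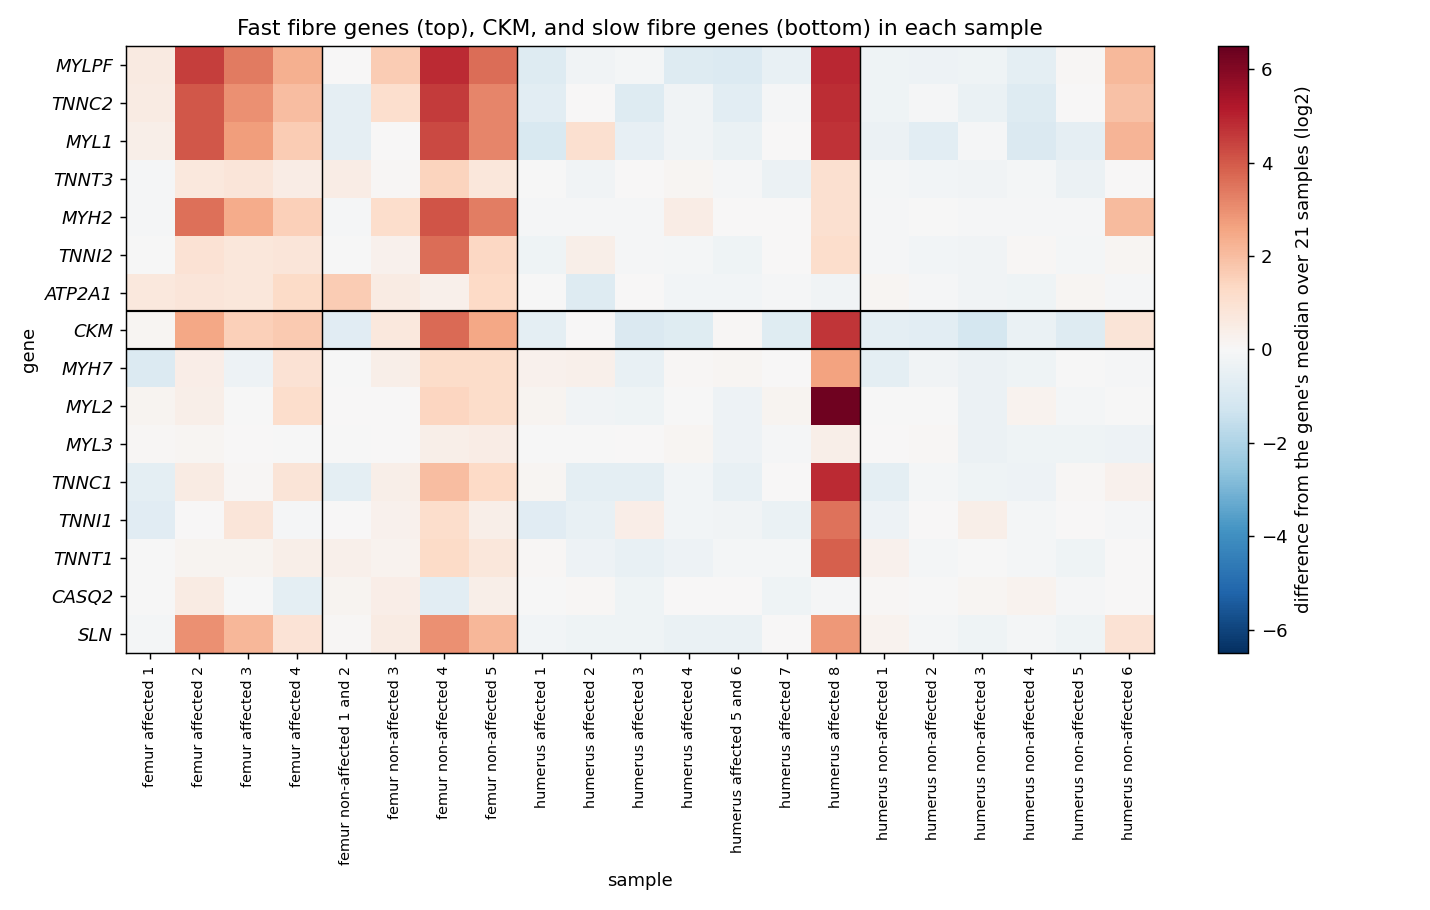
Difference of each gene (rows) from its own median over the 21 samples, in log2 units by colour, in each sample (columns, grouped by site and status). MYLPF, TNNC2, MYL1 and SLN are high in femur affected 2, femur non-affected 4, femur non-affected 5 and humerus affected 8, while MYL2, TNNC1, TNNI1 and TNNT1 are highest in humerus affected 8.

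Cartilage genes did not follow the muscle genes in 1 direction. Humerus affected 8 read 12.21 for COL2A1, 13.72 for ACAN and 13.71 for COMP, another matrix protein of cartilage, against medians over all samples of 12.16, 13.56 and 13.72. The summed level of the 7 measured chondrocyte genes was 45500 there, the highest of the affected humeral samples, which ran from 27700. Femur non-affected 4, in contrast, had the lowest ACAN, COL2A1 and COMP of the femur, at 13.07, 11.63 and 13.48. Smooth muscle genes varied between these samples too. Their summed level in humerus affected 8 was 3190, the lowest of affected humerus, where the highest was 9290. That sum ran from 1760 to 2780 in affected femur, 1250 to 2670 in non-affected femur and 1930 to 7400 in non-affected humerus. Femur non-affected 4 held the highest of non-affected femur, 2670, and also the highest endothelial sum, 1300, adipocyte sum, 530, and myeloid sum, 4200, of that group. The part of these tissues in its muscle values was not tested.

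The probe sets whose pattern over the 21 samples was most like the fast genes were sought among 8065 with 1 gene symbol. The closest was annotated as ACTG1, a cytoplasmic actin, with r = 0.980, and spanned 6.22 to 15.03. Its name ends in _s_at, which on this platform marks probes shared by several transcripts, so which actin it reads is uncertain. A control probe set annotated as ACTG1 lay between 12.75 and 13.41 in the femur and between 13.15 and 13.54 in the humerus. Next were SLN at r = 0.976, ENO3, the muscle enolase, at 0.898, MYOZ1, a protein of the Z-disc in fast fibres, at 0.848, TNNI2 at 0.821 and PGAM2, the muscle phosphoglycerate mutase, at 0.778. A pair of probe sets for PYGM, muscle glycogen phosphorylase, had 0.757 and 0.750, ATP6V1C2 had 0.727 and ARFGAP3 0.718.

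For MYH7 the closest were MYL2 at r = 0.851, TNNT1 at 0.833, PYGM at 0.816 and 0.732, and MYOZ1 at 0.772. MYL2 had r = 0.826 with MYH7 over the 8 femoral samples, and TNNT1 0.791. These correlations describe 21 samples that share the site difference and humerus affected 8, and they were not tested.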

How the data were processed

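Values are the log2 levels per probe set that the authors deposited for 23 arrays. The submitters' processing notes name GCOS 1.1.1, with further steps, such as normalisation, not given in the sources used here. They were used as deposited, and gene symbols come from the platform annotation. Arrays of 1 group whose values differed by an SD under 0.25 were averaged, which left 21 samples. Of 24123 probe sets, 124 controls and the 7200 with a mean under the 30th percentile (5.30) were left out. limma 3.58.1 in R 4.3.3 (lmFit, eBayes) fitted the other 16799, with site or status as covariate or with 4 group means, and p-values were adjusted by Benjamini and Hochberg over all of them; a call is an adjusted p under 0.05. Permutation tests used scipy 1.17.1. The fits were tested on simulated data. Alternatives changed the filter, scaling, variance model, array weights, the averaging of arrays and the samples left out. The number of arrays limits the precision.

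All probe sets of the 6 genes are named. From each wider list the 3 genes with the smallest p in femur against humerus and in status over both sites were named, and the 10 probe sets most like the fast genes and the 5 most like MYH7. Genes, lists and rules were chosen with earlier results of these data known. Promoter sequences were not used here, so the planned motif search was not run.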

Additional observations from a re-analysis of the deposited data

Results flagged for a closer look

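Humerus affected 8 stood apart from the other 6 samples of its group for all 6 genes by Dixon's criterion, which compares the gap to the nearest sample with the range of the group. It read 10.07 for MYLPF, 9.66 for TNNC2, 9.67 for MYL1, 6.34 for TNNT3, 10.31 for CKM and 7.87 for MYH7. Humerus non-affected 6 stood apart in its group for 4 genes, at 7.31 for MYLPF, 6.77 for TNNC2, 7.18 for MYL1 and 6.51 for CKM. These are 10 such values over 24 sets of 1 gene in 1 group, where chance gives about 1 in 20, and the genes are not independent.

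A control probe set for the 3′ end of actin, which carries no gene symbol and enters no comparison, read 17.64 in humerus affected 8, 16.48 in femur non-affected 4, 15.63 in femur affected 2 and 15.41 in femur non-affected 5. The other 17 samples lay between 8.53 and 9.58. The 4 high samples are those with the highest MYLPF, but femur affected 3, with MYLPF at 8.55 beside 8.79 in femur non-affected 5, read 8.85.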

How the results depend on the processing

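None of the 6 genes was called in a comparison of status under any alternative of the limma fit. In femur against humerus 5 of 6 were called, beside 8707 of all 16799 probe sets. With the filter at the 50th percentile it was 1 of 1 tested, beside 6153 of 12000 probe sets. Without probe sets at the floor it was 3 of 4 tested, beside 8357 of 16366. With array weights it was 2, beside 9250 of 16799. The count was 4, without MYL1, with no filter, with an intensity trend and robust variances, and with 23 separate arrays. Of all probe sets, 10299 of 23999, 8705 of 16799 and 9264 of 16799 were called in these settings. The count was also 4, without MYL1, when the site differences of affected and non-affected samples had equal weight, beside 9002 of 16799 probe sets. Leaving out each array in turn gave 3 to 5. The count stayed at 5 without humerus affected 8 and humerus non-affected 6, beside 7972 of 16799 probe sets. Centring the arrays moved the median difference of all probe sets between the sites from -0.12 to 0.05. It moved the share of calls that were higher in the femur from 34% to 56.6% (54.6% with quantile normalisation). In both settings 5 genes were called, beside 8667 and 8608 of 16799 probe sets.

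Signs of the small status differences changed. With array weights the difference between the sites' effects was -0.21 for MYLPF and -0.19 for TNNC2. With 23 arrays it was 0.46 for MYL1, while MYLPF differed by -0.027 in the humerus and CKM by 0.40 in the femur. Without humerus affected 8 and humerus non-affected 6, a choice made after seeing the data, MYLPF, TNNT3 and MYH7 differed by -0.084, -0.011 and -0.058 over both sites, MYLPF and TNNC2 by -0.264 and -0.089 in the humerus, and the effect difference of MYL1 was 0.12. Leaving out each array gave, over both sites, -0.34 to 0.40 for MYLPF, -0.15 to 0.58 for TNNC2, -0.026 to 0.187 for TNNT3, -0.043 to 0.688 for CKM and -0.057 to 0.341 for MYH7. In the humerus it gave -0.67 to 0.51 for MYLPF, -0.46 to 0.66 for TNNC2, -0.10 to 1.06 for MYL1 and -0.034 to 0.962 for CKM. In the femur it gave -0.43 to 0.94 for MYLPF, -0.25 to 1.14 for TNNC2, -0.13 to 1.33 for MYL1, -0.407 to 0.063 for TNNT3 and -0.41 to 0.67 for CKM. The effect differences ran from -0.54 to 0.83 for MYLPF, -0.53 to 0.85 for TNNC2 and -0.73 to 0.74 for MYL1. The cause was not tested. No paired analysis was possible because the labels give the groups no shared replicate numbers and do not name the sibs.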

Other observations

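Genes that both fibre types use were mixed. Of 39 such genes 27 had a probe set and 17 passed the filter; 6 were called higher and 3 lower in the femur than in the humerus, with a median difference of 0.28. Over all probe sets 51.8% were called, 17.6% higher and 34.2% lower, so the total of 9 calls of 17 is close to that background. The directions were not, since more of the 17 were called higher than lower. That background split depends on scaling, with 56.6% of all calls higher when the arrays were centred. The 17 genes were not tested as a set. The smallest p-values were those of TCAP, the titin cap, which rose by 0.41 (adjusted p = 3.39e-04), XIRP1, an actin-binding protein of muscle, which rose by 0.64 (adjusted p = 0.001), and the tropomyosin TPM2, which fell by 1.32 (adjusted p = 0.00109). In status over both sites 0 of 17 passed, with PDLIM3, a protein of the Z-disc, at 0.99 (unadjusted p = 0.0284, adjusted p = 0.639), MYOM2 of the M-band at 0.21 (unadjusted p = 0.0426) and the giant filament protein NEB at 0.16.

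Humerus affected 8 held the highest value of 8 of these 27 genes. Picked after their values were seen, they include MYBPC1, the slow myosin-binding protein, at 7.21 against at most 5.10 in the other humeral and 5.39 in the femoral samples, and MYOT, of the Z-disc, at 6.94 against at most 4.92 and 5.61. CA3, the carbonic anhydrase of slow fibres, read 8.39 there, but also up to 7.81 in other humeral samples. The muscle regulators were not high in that sample, with MYOD1 at 4.99 and MYF6 at 4.94, and MYF5 at the floor. They were dim in all samples, at most 5.62 for MYOD1, 5.27 for MYF6 and 4.84 for MYF5. None passed the filter, so these values say little about that sample.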
